A study of Mus musculus with 20 samples.

Results

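Follicular CD4 T cells of peripheral lymph nodes (pLN) were compared between day 25 (d25) and day 12 (d12) after immunisation, over 12 arrays of the 20 in the series. The 12 were all the pLN arrays: T follicular helper (TFH) and T follicular regulatory (TFR) cells, and the naive T and regulatory T (Treg) cells sorted beside them, with 2 arrays per fraction on d12 and 1 on d25. The other 8 arrays came from Peyer's patches (PP). The measure was the follicular difference within a slide, that is the mean log2 intensity of TFH and TFR cells minus the mean of naive and Treg cells, here called the reference fractions. Its day change was the value on the d25 slide minus the mean over the 2 d12 slides. Each slide of 4 arrays held 1 day. For a single fraction the day and its slide cannot be told apart, so levels of single fractions on the 3 slides are given as a description, and the tests were of differences within a slide.

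All groups came from the strain B6.Cg-Foxp3<tm1Mal>, in which green fluorescent protein (GFP) reports the Treg transcription factor Foxp3, at an age of 8-14 weeks. Mice of both sexes had received keyhole limpet hemocyanin in alum under the skin, also those that gave the naive and Treg fractions, and no lymph nodes of unimmunised mice were analysed here. CD4 T cells were sorted from pooled nodes of 8-15 mice. TFH cells were GFP-, PD1hi and GL7+, TFR cells were GFP+ and PD1hi irrespective of GL7, naive cells were GFP-, PD1lo and GL7-, and Treg cells were GFP+, PD1lo and GL7-. PD1 (Pdcd1) and Foxp3 were used in the sort, so their differences between fractions are no finding. The series' design text speaks of more experiments per day than the arrays used here, and the others were not analysed here. P-values rest on the assumption that the single d25 array of a fraction varies like arrays of the other groups.

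TFH cells enter the B cell follicle under the transcription factor Bcl6 and the chemokine receptor Cxcr5, and there they help germinal centre B cells with the cytokines Il21 and Il4 and with contact signals. TFR cells take up much of the same programme while they keep Foxp3, and most of them derive from Treg cells. Both lose receptors and factors of recirculating cells, such as Ccr7, S1pr1 and Klf2. A germinal centre forms, matures and wanes over weeks after a protein antigen in alum.

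The transcripts that carry the comparison were read by probes of 60 bases, of which the first 30 are given 5′ to 3′ as the scanner files hold them, with the mm9 position of the whole probe. Il3 and Gc were chosen because they were called, though on values near background. Fabp7, Dbh and Lgals7 led the follicular day change, and Pde2a, Penk and Tph1 show what single fractions did. Exon or UTR positions were not looked up.
Il3, chr11:54078587-54078646: attccaaggaagactggggccatgttcatt
Gc, chr5:89846592-89846651: gccttccaagaagatcaccaagataattcc
Fabp7, chr10:57508039-57508098: tgaagcactggtcactaattataagtttgt
Dbh, chr2:27038665-27038724: ggtggtgacttgtgttagtgtatgccgtga
Lgals7, chr7:29650625-29650684: cacttccgaggttgtcttcaacaccaaaga
Pde2a, chr7:108661268-108661327: ctgttgtgtgtggtcccgtgggctgagtgc
Penk, chr4:4060724-4060783: gctatgttgttatcaatagtttgttacctc
Tph1, chr7:53902553-53902612: tacttctgttttgtcttctggaacctgctg

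The sorted fractions carried the transcripts of their labels on both days. Bcl6 intensity in TFH cells was 70322 and 42692 on the d12 slides and 54741 on d25, against 3431 to 5592 in the reference fractions. Foxp3 lay between 22047 and 35129 in Treg and TFR cells of both days and between 27 and 192 in naive and TFH cells. Ccr7, which guides recirculating T cells into nodes, was 93710 to 134554 in the reference fractions and 7114 to 36476 in the follicular ones. Markers of other cells differed between slides and days. The summed intensity of 13 B cell markers ran from 6948 to 26924 in follicular and 9625 to 18038 in reference fractions on d12, and from 6824 to 7643 and 4681 to 12432 on d25. Ebf1 and Ighm were well above background only on the d12 TFH array of slide 1. The sum of 4 erythroid markers was 188 to 3488 in follicular and 2155 to 8000 in reference fractions on d12, and 6991 to 8185 and 7215 to 11019 on d25, with Alas2 detected on no array. The sum of 4 plasma cell markers was 24910 to 89673 in follicular and 30202 to 41965 in reference fractions on d12. On d25 it was 23887 to 30398 and 14687 to 22783. Among these markers Jchain ran from 4347 to 53968 on the d12 arrays and from 276 to 1621 on the d25 arrays, with no overlap. Xbp1 overlapped, at 15046 to 35272 on d12 and 13025 to 29093 on d25. Sums of 7 T cell markers stayed between 607862 and 964841. The part of other cells in the results below was not tested, and fewer cells of a type cannot be told apart from less RNA per cell in such bulk samples. Between 43.0% and 54.8% of probes were well above background per array, most on slide 1. Slide 1 had 50 ng of RNA input and slides 2 and 3 had 40 ng, and each fraction sat at the same position on every slide.

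The follicular difference was broad on both days. In limma's test over 22118 probes, where a call needed an absolute log2 value of at least 1 and an adjusted p under 0.05, 3455 probes (15.6%) differed between follicular and reference fractions on d12, 2233 of them higher (10.1%) and 1222 lower (5.52%) in follicular cells. On d25 it was 3587 (16.2%), with 2214 higher (10%) and 1373 lower (6.21%). Of these, 2781 probes were called on both days, all in the same direction, which is 80.5% of the d12 and 77.5% of the d25 calls. Across probes, which are not independent replicates, the follicular difference of d25 correlated with that of the d12 slides at r = 0.888 and 0.900, and the d12 slides with each other at r = 0.869. The root mean square log2 difference was 0.48 between the d12 slides and 0.46 and 0.43 between d25 and each of them. Thus d25 lay no farther from either d12 slide than these lay from each other. Slides 2 and 3 were scanned on 1 day and slide 1, with its higher RNA input, on another. The distance between the d12 slides therefore also spans scan day and input. Over probes well above background on all 12 arrays it was 0.31, with 0.30 and 0.28 against d25.

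The fractions differed in this respect. TFH minus naive had root mean square differences of 0.68 between the d12 slides and of 0.61 and 0.48 against d25. For TFR minus Treg they were 0.48 between the d12 slides and 0.63 and 0.56 against d25, so here d25 stood farther off. Among the 15663 probes detected on all 12 arrays the values were 0.29, 0.45 and 0.35 for TFR minus Treg. No test was run on these distances, which rest on 3 slides.

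**Figure D1:**
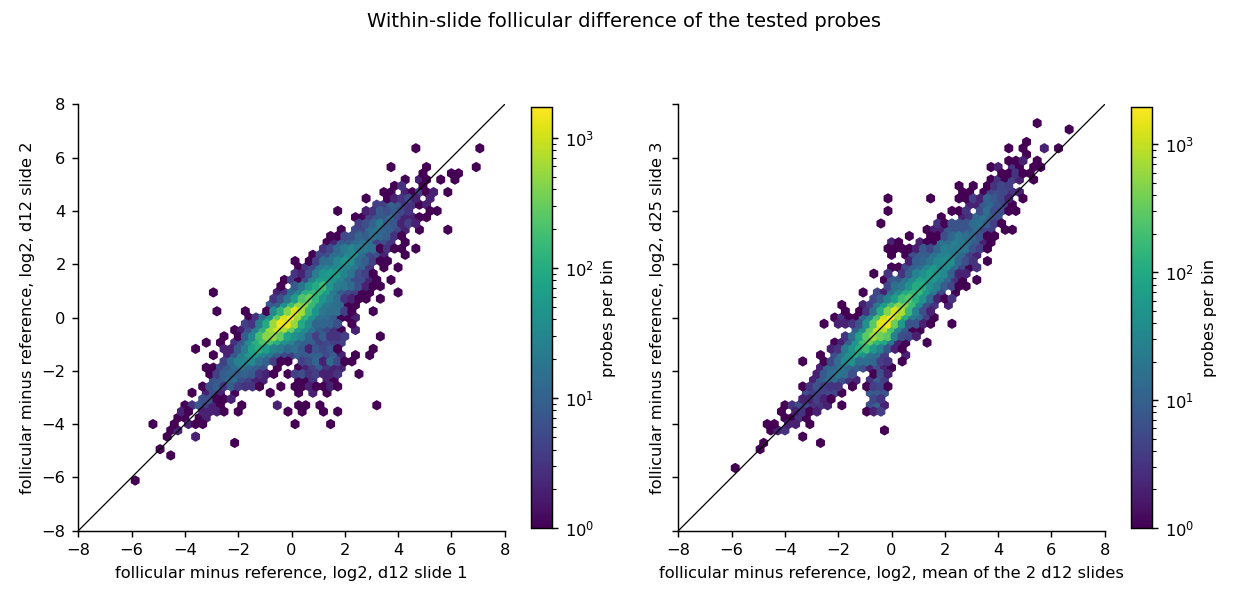
Each panel bins the 22118 tested probes by their follicular difference (log2, TFH and TFR mean minus naive and Treg mean within a slide), d12 slide 2 against d12 slide 1 on the left and d25 slide 3 against the mean of both d12 slides on the right; colour gives the number of probes per bin on a log scale and the line marks equality. Both clouds follow the line, and d25 has a spur of probes near -2 to -4 whose d12 mean is near 0.

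A programme taken from other samples gave the same picture. In PP, 2837 probes (12.8% of those tested) were called between follicular cells (GL7+ TFH and TFR) and Treg cells. Multiplied by the sign of the PP difference, their median follicular difference in pLN was 1.34 and 1.22 on the d12 slides and 1.43 on d25, a day change of 0.15 beside an SD of 0.085 between the d12 slides. TFH minus naive gave 1.76, 1.38 and 1.56 for d12 slide 1, d12 slide 2 and d25, and the d25 value lay between the d12 ones. TFR minus Treg gave 0.95, 1.04 and 1.20, a change of 0.21 beside an SD of 0.066. Without d12 slide 1 the pooled change was 0.25. With values below background raised to the lowest detected intensity of their array, the pooled day change turned to -0.07, and over probes detected on all 12 arrays it was 0.02. These lowest intensities were 20 to 92.2 on the d12 arrays and 72.7 to 144 on the d25 arrays. Raising values to them therefore shifts differences between days by itself.

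No probe passed the test for the follicular day change. limma called 0 of 22118 probes (0%), with a smallest adjusted p of 0.0739, while 2139 (9.67%) had an unadjusted p under 0.05, 1129 of them (5.10%) higher and 1010 (4.57%) lower on d25. An unmoderated contrast without slide called 1 probe, Fabp7, and slide as a random block 10. Without d12 slide 1 the count was 1 and without d12 slide 2 it was 83. Leaving out the d12 TFH array of slide 1 gave 14 calls and that of slide 2 gave 10. In simulated data of this layout 74.5% of probes with a true log2 change of 1.5 were recovered. The simulation gave each probe independent noise at its fitted spread, also on the unreplicated d25 arrays. It therefore does not show which changes would have been found in the data. The median SE of a follicular day change was 0.18. The genes below are therefore given as values, the 10 probes of smallest p in each direction among those with an absolute log2 change of at least 1 that lay beyond both d12 slides.

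The 10 leading probes higher on d25 were those of Fabp7, 1810009J06Rik, Dbh, Pdlim7, Krt13, Gc, Pgm3, Evi5, Csta2 and Smim1, with adjusted p from 0.0739 to 0.164. Most were dim transcripts seen in TFH cells. For 7 of the 10 no reference array was well above background, and none was detected on all 12 arrays. With undetected values raised to the detection limit, 6 of the 10 took the opposite sign and none kept a change of 1. The limit was the lowest detected intensity of an array, and some undetected probes read above it. Pgm3, for example, read 69 undetected on the d12 naive array of slide 1, where the limit was 41.1. Folds against the limit are therefore no strict minima on either day, and the difference between days has no bound. The limits themselves differed between arrays and days. Dbh, detected on no TFR or Treg array, thereby took a TFR minus Treg change of -1.36 from the limits alone. Signs and sizes with the detection limit carry this shift and are no check of a change.

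Fabp7, a brain-type fatty acid binding protein, led them. Its TFH intensity was 225 and 212 on the d12 slides and 1061 on d25, and TFR cells had 20, 20 and 87. All naive and Treg arrays lay at 20 to 41, below background. The follicular day change was 1.69 ± 0.15 (SE, limma adjusted p = 0.0739) and 0.13 with the detection limit in place. Against that limit TFH over naive cells was 3.55-fold on d12 and 9.07-fold on d25.

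Dbh, which turns dopamine into noradrenaline, followed the same course, with 266, 189 and 935 in TFH cells on d12 slide 1, d12 slide 2 and d25. TFR cells read 20, 20 and 53, not well above background on any slide. Its follicular day change was 1.74 ± 0.19 (limma adjusted p = 0.091), or -0.11 with the detection limit. The TFH level was 3.65-fold (d12) and 7.99-fold (d25) the detection limit of naive cells. In both genes the d25 TFH array was higher than either d12 TFH array, and the reference level was unknown.

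1810009J06Rik reached 2114, 2793 and 6218 in TFH cells and 230, 277 and 737 in TFR cells, again with d25 highest in both. Its naive and Treg arrays read 20 to 31, below background. The day change was 1.68 ± 0.17 (limma adjusted p = 0.0899), or 0.11 with the detection limit. Against that limit the TFH to naive ratio was 39.5-fold on d12 and 53.2-fold on d25. The TFR to Treg ratio was 5.94-fold and 5.12-fold.

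Evi5, a regulator of vesicle traffic and cell division, was the best measured of the 10, detected on 10 of 12 arrays. Naive, TFH, Treg and TFR cells had 94, 317, 178 and 202 on d12 slide 1, 105, 279, 172 and 258 on d12 slide 2, and 84, 460, 125 and 410 on d25. Both follicular fractions were highest on d25, where neither reference fraction was above background. The day change was 1.10 ± 0.16 (limma adjusted p = 0.164), or 0.76 with the detection limit. Csta2, a stefin that inhibits cysteine proteases, had 160, 212 and 535 in TFH cells and no detected value elsewhere. Smim1, a small membrane protein of the Vel blood group, had 97, 82 and 235 in TFH cells.

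**Figure D2:**
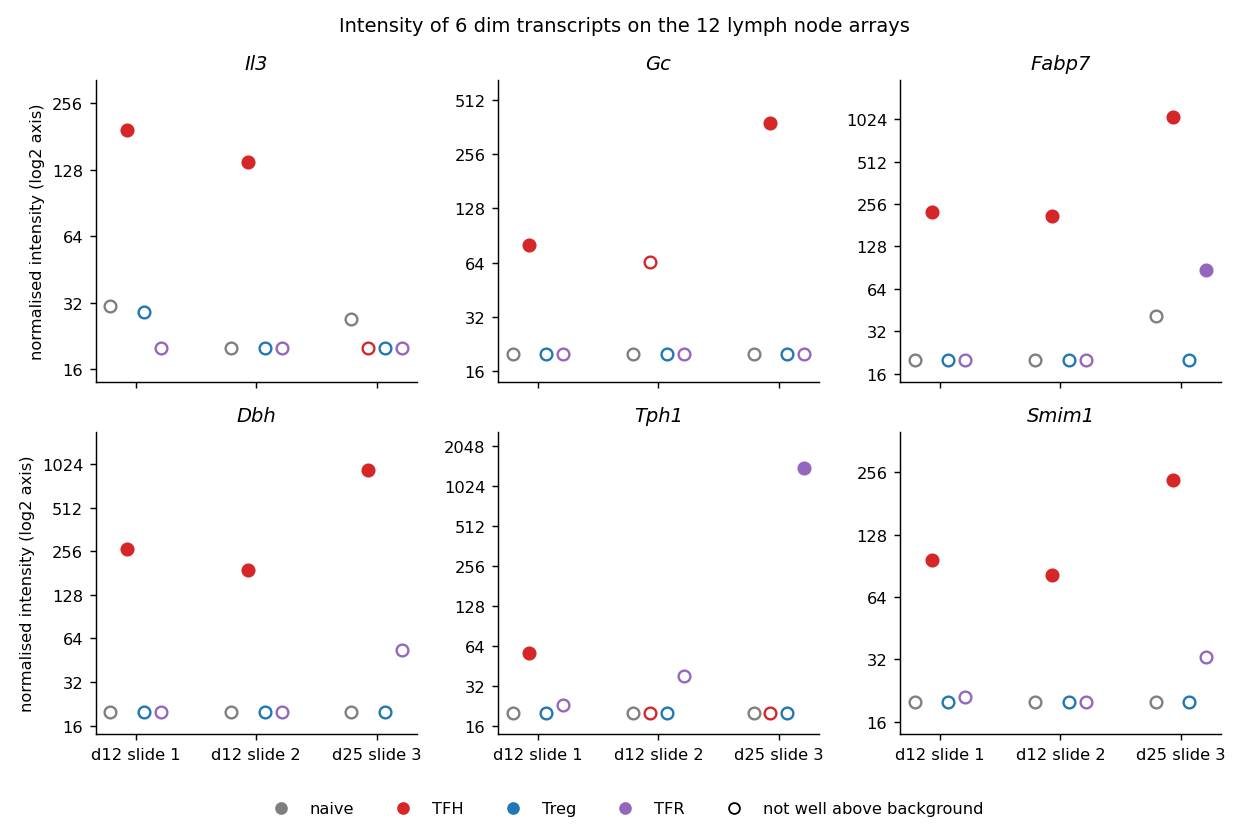
Normalised intensity (log2 axis) of 6 dim transcripts on the 12 pLN arrays, grouped by slide; each point is 1 array, colours give the fraction and open points were not well above background. Il3 in TFH cells is 194 and 139 on d12 and below background on d25, Gc, Fabp7, Dbh and Smim1 are highest in TFH cells of d25, and Tph1 reaches 1412 in TFR cells of d25 alone.

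The 10 leading probes lower on d25 were those of Il3, Gm5431, Tmem171, Gm10114, Myo6, Rab30, B130006D01Rik, Gm9733, Gm12790 and Lgals7, with adjusted p from 0.091 to 0.201. Of these, 1 (Lgals7) was detected on all 12 arrays, 5 kept a change of at least 1 with the detection limit in place, and 1 (B130006D01Rik) took the opposite sign. In TFR minus Treg the limits alone shift undetected values down on d25, the direction of these changes. In Gm10114, Rab30 and Gm12790 the d25 Treg array was the highest of the 12, at 239, 439 and 304.

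Lgals7, a galectin best known from stratified epithelia, was the one measured on every array. On d12 slide 1 it had 174 in naive, 2299 in TFH, 343 in Treg and 1071 in TFR cells, and on d12 slide 2 it had 362, 3017, 481 and 1344. On d25 it had 205, 701, 333 and 410. Follicular cells were above the reference on every slide, and both follicular fractions were lowest on d25. The within-slide difference went from 2.68 and 2.27 to 1.04, a day change of -1.44 ± 0.27 (limma adjusted p = 0.201), with -1.62 for TFH minus naive and -1.26 for TFR minus Treg.

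Myo6, an unconventional myosin, was a reference transcript. Naive and Treg cells held 357 to 2319 on all slides, while TFH cells had 82, 114 and 20 and TFR cells 227, 164 and 34 on d12 slide 1, d12 slide 2 and d25. Both follicular fractions were below background on d25. Its day change was -2.00 ± 0.32 (limma adjusted p = 0.164), or -0.25 with the detection limit. Tmem171, a membrane protein, had 141 and 122 in TFH and 108 and 118 in TFR cells on d12, and neither fraction was above background on d25, at 30 and 66. It passed the filter on low values only through those 4 d12 arrays, where it was high. The test of Tmem171 is therefore no support for a change. Its day change was -1.31 ± 0.18 (limma adjusted p = 0.157), or -1.69 with the detection limit.

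Probes well above background on all 12 arrays gave a further set, chosen after their values were seen. A fit over these 15663 probes alone called none, with a smallest adjusted p of 0.558 and 1244 probes at an unadjusted p under 0.05. Ttc28 was one of the genes lower in follicular cells, with 925, 789 and 1839 in TFH and 2656, 2248 and 3039 in TFR cells on d12 slide 1, d12 slide 2 and d25. Naive cells had 6374, 4458 and 4095, and Treg cells 5200, 4473 and 3161. The gap to the reference was smallest on d25 for TFH and for TFR cells, with a follicular day change of 1.21 ± 0.21 (limma adjusted p = 0.174), and 2 further probes of the gene gave 1.02 and -0.01.

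Gal, the neuropeptide galanin, is another such gene. TFH cells had 9230, 3442 and 10932, and TFR cells 934, 611 and 1384, against 381 to 615 in the reference fractions. The follicular difference was 2.30 and 1.88 on the d12 slides and 3.20 on d25, a day change of 1.11 ± 0.26 (limma adjusted p = 0.26). Cd38, an ectoenzyme that uses NAD, had 1236, 801 and 1822 in TFH and 2336, 3245 and 4815 in TFR cells, above both d12 arrays in each fraction (day change 1.18 ± 0.31, limma adjusted p = 0.292). Marcks, a membrane substrate of protein kinase C, had 1974, 2061 and 1330 in TFH and 824, 788 and 1391 in TFR cells. Its follicular day change of 1.33 ± 0.33 (limma adjusted p = 0.276) came with reference levels that were lowest on d25, at 201 in naive and 305 in Treg cells against 355 to 1073 on d12. Ctsl, the lysosomal protease cathepsin L, had 17200, 9889 and 24717 in TFH and 1313, 1308 and 2729 in TFR cells (day change 1.04 ± 0.25, limma adjusted p = 0.276).

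**Figure D3:**
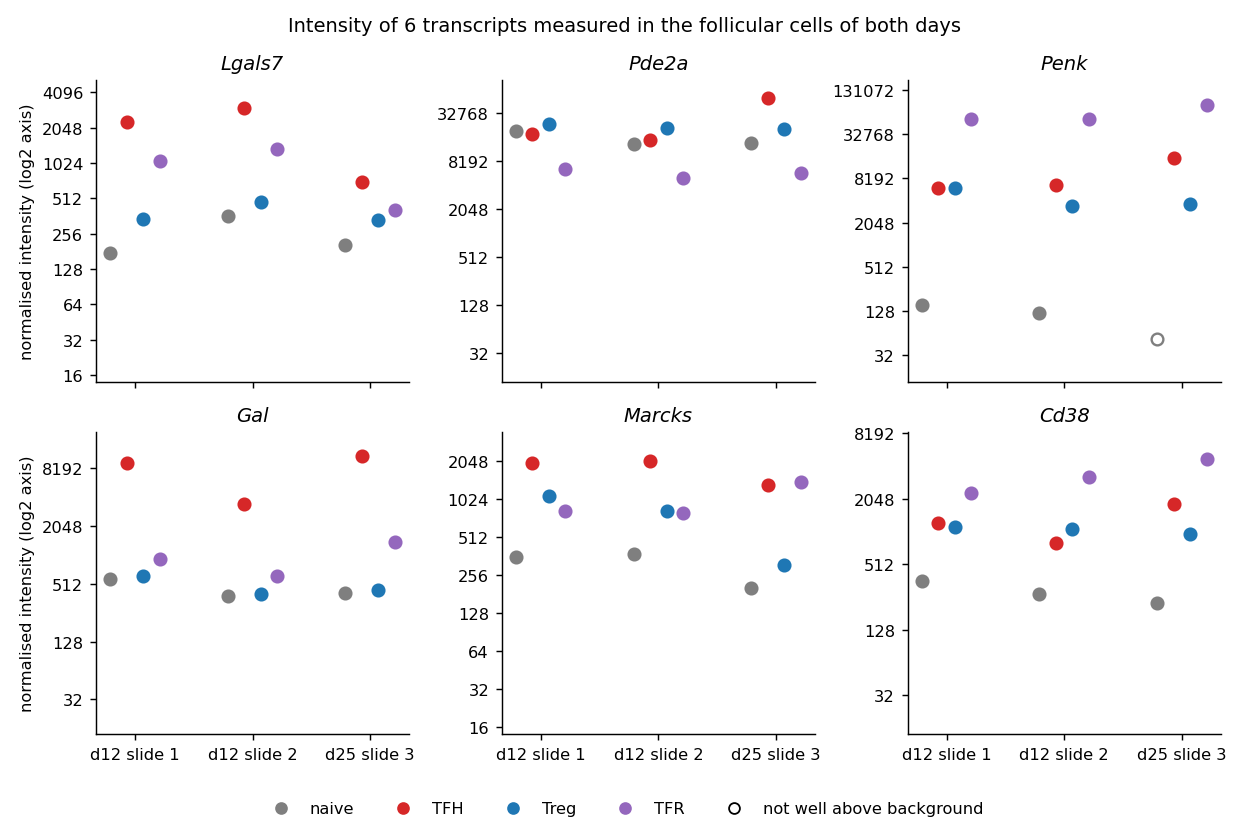
Normalised intensity (log2 axis) of 6 transcripts with signal in the follicular cells of both days, drawn as 1 point per array, coloured by fraction and grouped by slide; open points were not well above background. Lgals7 is lowest in both follicular fractions on d25, Pde2a is raised in TFH cells of d25 alone at 51019, and Penk is highest in TFR cells on each slide.

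The helper contrast, TFH minus naive cells, was the follicular one with calls. limma called 2 of 22118 probes (0.00904%), that of Il3 lower and that of Gc higher on d25, and 1164 probes (5.26%) had an unadjusted p under 0.05. Il3, a growth factor for mast cells and myeloid progenitors that activated T cells make, had 194 and 139 in TFH cells on d12 and 20 on d25, the last below background. Every other array lay at 20 to 31, below background. It passed the filter on low values only through those 2 d12 arrays, the group where it was high, so the call is no support for a change. The day change was -3.16 ± 0.25 (SE, limma adjusted p = 0.0223), or -1.58 with the detection limit. Against the detection limit TFH over naive cells was 2.67-fold on d12, and on d25 both were below background.

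Gc, the vitamin D binding protein known as a plasma protein of the liver, had 80, 65 and 379 in TFH cells, and all other arrays were at 20. The d12 value of slide 2 was not well above background. Gc too passed the filter only through TFH arrays, that of d12 slide 1 and the d25 array where it was high. With the other fractions at the floor of 20, its call is no support for a change either. The day change was 2.40 ± 0.20 (limma adjusted p = 0.0223), or 1.44 with the detection limit, and a second probe of the gene changed by 0.58 in the follicular day change against 1.20 for this one. TFH cells of d25 were 3.24-fold the detection limit of naive cells. With undetected values raised to the detection limit neither gene was called, nor without the slide block, nor with the pLN arrays alone. No probe was called without d12 slide 1 and 25 were called without d12 slide 2. Leaving out a single d12 TFH array gave 9 or 8 calls, leaving out the naive array of slide 2 gave 14, that of slide 1 or either d12 Treg array 0, and either d12 TFR array 1.

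Several brighter transcripts had large helper day changes that did not pass the test. Pde2a, a phosphodiesterase that degrades cAMP when cGMP binds it, had 18286 and 15362 in TFH cells on d12 and 51019 on d25. Naive cells had 19429, 13371 and 13874, Treg cells 23925, 21302 and 21110, and TFR cells 6523, 5130 and 5820. The d25 TFH array was thus the single high one of 12. The TFH minus naive day change was 1.82 ± 0.22 (limma adjusted p = 0.101), that of TFR minus Treg was 0.11.

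Penk, the precursor of the enkephalin opioid peptides, had 5981, 6554 and 15332 in TFH and 52318, 52318 and 81836 in TFR cells, with d25 highest in both. Naive cells had 155, 121 and 54, the last below background, and Treg cells 6099, 3435 and 3644. The helper change was 2.64 ± 0.47 (limma adjusted p = 0.339), or 1.52 with the detection limit, and the regulatory change 0.97 ± 0.47. Eomes, a T-box factor of cytotoxic cells, had 425, 1009 and 1542 in TFH cells and 1590, 1704 and 982 in naive cells, so that the order of the fractions turned on d25. Its helper change was 1.98 ± 0.68 (limma adjusted p = 0.814), with d12 slides that lay far apart. Jun, an AP-1 subunit, had 553, 771 and 755 in TFH and 3123, 4449 and 2052 in naive cells, a change of 1.07 ± 0.25 (limma adjusted p = 0.61) in which the TFH level stayed within its d12 range and the naive level was lowest on d25. Socs3, an inhibitor of cytokine signalling, was 10780, 21065 and 5073 in TFH cells, with a change of -0.95 ± 0.28 (limma adjusted p = 0.725).

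In the regulatory contrast, TFR minus Treg cells, limma called 0 probes (0%) at a smallest adjusted p of 0.188, and 2348 (10.6%) had an unadjusted p under 0.05. A random block for slide called 1, Fabp7, and leaving out the d12 TFR array of slide 2 gave 47 calls. Among the larger increases in intensity was that of Tph1, the enzyme that starts serotonin synthesis outside the brain, a member of the amine, peptide and lipid mediator list but outside the naming rule and chosen after its values were seen. TFR cells had 23 and 38 on d12, below background, and 1412 on d25. TFH cells had 57, 20 and 20, and every naive and Treg array was at 20. The change of 5.59 ± 0.79 (limma adjusted p = 0.207), or 2.92 with the detection limit, rests on 1 array. On it TFR cells were 9.81-fold the detection limit of Treg cells. Tph1 passed the filter on low values only through this array and the d12 TFH array of slide 1. Its test is therefore no support for a change.

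The d25 Treg array itself stood apart. On 99 tested probes (0.448%) it exceeded every other pLN array by at least 1 on the log2 scale. That choice by itself sets d25 TFR cells at least 1 below d25 Treg cells on these probes. All 99 were among the 1118 probes (5.05%) lower in TFR minus Treg on d25 at an unadjusted p under 0.05 in limma. This overlap follows from the choice and is no separate finding. Ciita, the MHC class II transactivator, had 7971 there against 314 to 2807 on the other 11 arrays, and Top3b, a topoisomerase, 21557 against 1427 to 7559; both were chosen after their values were seen. Their follicular day changes were -2.40 and -1.92 (limma adjusted p = 0.276 each), and a second probe of Top3b gave 0.00. The d12 TFH array of slide 1 exceeded all others on 230 probes and the d25 TFH array on 40, while the other 9 pLN arrays did so on at most 20. The d25 arrays cannot be left out, because each is the only one of its fraction and day.

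Follicular programme genes, a list of 24, lay higher in TFR relative to Treg cells on the d25 slide, with no single gene called. The list was chosen with earlier results of these data known. The paper itself reported some members, such as Tbc1d4 and Hif1a, from its arrays, so the counts are a description. Over all tested probes TFR minus Treg also spread most widely on d25, with an SD of 0.966 against 0.797 and 0.897 on the d12 slides. Of the 24, 23 lay above both d12 slides in TFR minus Treg and 1 (Tox2, of which a second probe changed by 0.38 against -0.54) below, where 39.3% and 38.1% of all tested probes did so. None was called and 3 had an unadjusted p under 0.05, all higher (5.56% of all tested were). The list's median difference was 1.43 and 1.51 on the d12 slides and 2.27 on d25, a median change of 0.58 beside 0.01 over all tested probes. With the detection limit in place 21 lay above and 2 below, with a median change of 0.54 beside -0.10. Markers of some other kinds moved with it, and those of others did not. All 7 T cell markers and all 3 tested plasma cell markers lay above both d12 slides in TFR minus Treg, with median changes of 0.38 and 1.19, and with the detection limit 2 plasma cell markers lay above and 1 below. Of 11 tested B cell markers 1 lay above and 1 below, and of 10 myeloid markers 3 lay above and 1 below. The part of these markers in the shift was not tested. In TFH minus naive, 3 of the 24 programme genes lay above and 3 below (30.4% and 26.9% of all), and the medians were 4.34, 3.60 and 4.23. In the follicular difference, 18 lay above and 1 below (35.0% and 31.7% of all), with 22 called higher on d12 (10.1% of all) and 23 on d25 (10% of all).

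**Figure D4:**
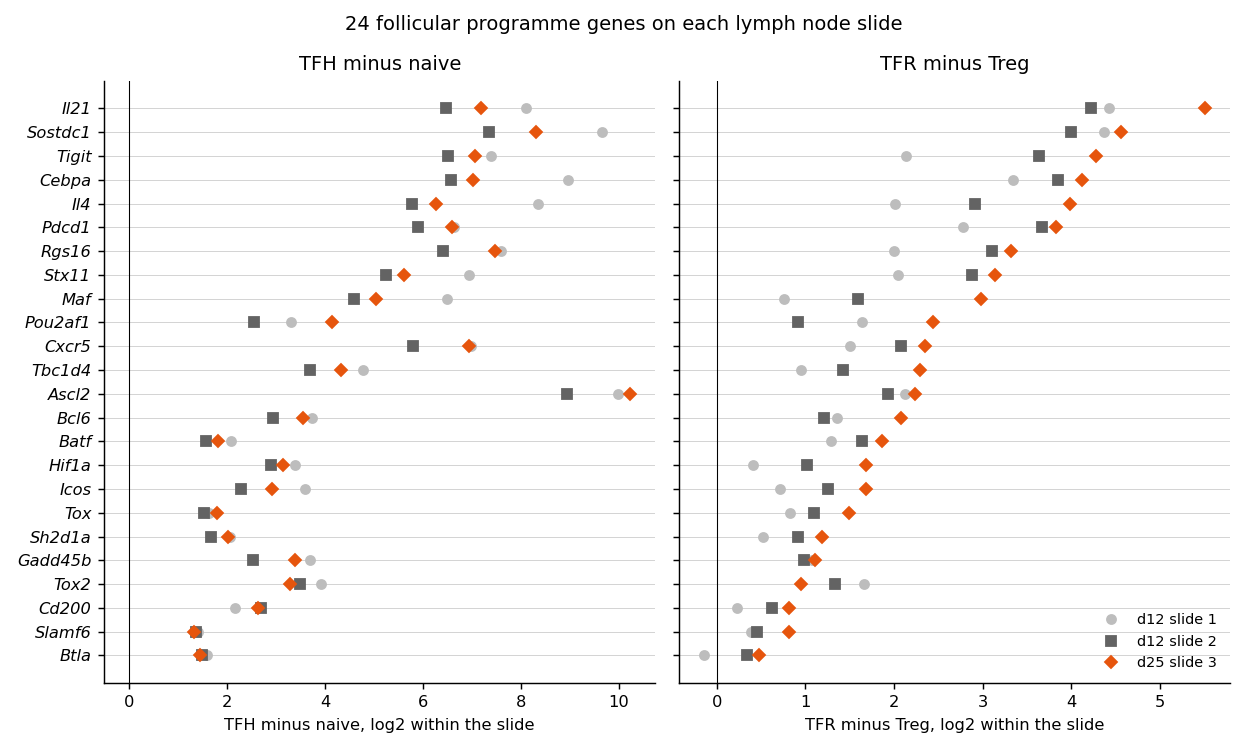
Within-slide log2 difference of the 24 follicular programme genes on each pLN slide, TFH minus naive on the left and TFR minus Treg on the right, 1 point per slide (grey, d12; orange diamonds, d25). On the right the d25 point is the rightmost for 23 of 24 genes, on the left it lies mostly between the d12 points.

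Bcl6 showed this pattern at 8794 and 10253 in TFR cells on d12 and 16807 on d25, with 3431, 4429 and 3964 in Treg cells. The TFR minus Treg change was 0.80 ± 0.41 (limma adjusted p = 0.511), and 0.21 ± 0.41 in the helper contrast. Pdcd1, used in the sort, had 27456, 38287 and 51386 in TFR cells, and Cxcr5 12125, 13683 and 15655. Tbc1d4, a Rab GTPase-activating protein, had 17533, 27349 and 51743 in TFR and 9054, 10153 and 10531 in Treg cells, a change of 1.11 ± 0.45 (limma adjusted p = 0.452), while a second probe of the gene changed by -0.54. All 4 genes were highest in TFR cells on d25, and in TFH cells Bcl6 and Tbc1d4 were highest on d12 slide 1.

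Maf, a factor that drives Il21 and Il4, had 14580, 21876 and 26103 in TFR and 8604, 7236 and 3311 in Treg cells. Its TFR minus Treg change was 1.80 ± 0.68 (limma adjusted p = 0.428), and the Treg level lay farther from its d12 values than the TFR level did. Hif1a, the oxygen-sensing factor, had 6044, 7764 and 10651 in TFR cells, with a change of 0.98 ± 0.39 (limma adjusted p = 0.441). Maf and Hif1a were picked for their p after it was seen. Il21 had 429, 373 and 914 in TFR cells, all Treg arrays being below background. Against the detection limit, which differed between days, TFR over Treg cells was 9.41-fold on d12 and 6.35-fold on d25. Il4 had 2697, 4169 and 3715 in TFR and 668, 555 and 234 in Treg cells, a change of 1.53 ± 1.04 (limma adjusted p = 0.616) in which the TFR level stayed within its d12 range and the Treg level was lowest on d25.

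Most Treg genes also lay higher in TFR relative to Treg cells on the d25 slide. Of 19, 17 lay above both d12 slides in TFR minus Treg and 1 below, where 39.3% and 38.1% of all tested probes did so. The counts were the same with the detection limit (30% and 50.4% of all), and the medians were 0.38, 0.65 and 1.07. None was called. Nt5e, the ectoenzyme CD73 that makes adenosine, had 9326, 15641 and 23988 in TFR and 6061, 6811 and 5918 in Treg cells, a change of 1.11 ± 0.40 (limma adjusted p = 0.423). Ikzf4, a partner of Foxp3, had 23943, 22833 and 30232, and Itgae, an integrin of tissue Treg cells, 4444, 3610 and 5417. Foxp3 itself had 29926, 22047 and 27484 in TFR cells, within its d12 range, and Il2ra, the high-affinity IL-2 receptor chain, 17697, 14256 and 18067. In Treg cells Il2ra was 28054, 20081 and 17418, so its TFR minus Treg change of 0.63 ± 0.48 came with a Treg level that was lowest on d25. Among the T cell markers, Cd3g, a chain of the T cell receptor complex, had 87446, 107341 and 145509 in TFR cells.

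Naive and egress genes split. Of 15, 6 lay above and 7 below both d12 slides in the follicular difference (35.0% and 31.7% of all tested probes), with a median change of 0.02. On each day 12 were called lower in follicular cells (5.52% of all tested probes on d12 and 6.21% on d25). Klf2, the factor that maintains egress receptors, had 37163, 27296 and 14466 in TFR cells and 5952, 12611 and 7579 in TFH cells. Satb1, a chromatin organiser, had 12342, 7895 and 3801 in TFR cells, a TFR minus Treg change of -1.03 ± 0.43 (limma adjusted p = 0.456). In both the TFR level was lowest on d25. Il7r, the survival receptor of resting T cells, had its highest follicular levels on d25, with 1664, 2211 and 3614 in TFH and 6759, 4925 and 8820 in TFR cells (follicular day change 0.93 ± 0.43, limma adjusted p = 0.541). For Ccr7 the change was 0.19 ± 0.40.

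No test compared the cell cycle lists with each other. Of 18 tested mitosis genes, 12 lay above and 3 below both d12 slides, with a median follicular change of 0.26, while of 18 DNA replication genes 3 lay above and 12 below, with a median of -0.15. Among all tested probes 35.0% lay above and 31.7% below. With the detection limit the mitosis count was 9 above and 7 below, with a median of 0.04, and the replication count 1 above and 13 below. Of all 22118 tested probes, 5977 then lay above and 8835 below. In TFH minus naive the counts with the detection limit were 2 above and 10 below for mitosis and 1 above and 10 below for replication. Their median changes were -0.235 and -0.218, beside 0.0277 over all tested probes. In TFR minus Treg with the limit, mitosis genes split 11 above and 5 below, and replication genes 4 above and 12 below. Of all tested probes 30% then lay above and 50.4% below. Without the limit mitosis genes split 13 and 4 in TFR minus Treg and 6 and 4 in TFH minus naive. Mki67, the proliferation antigen Ki-67, had 17399, 9260 and 3256 in TFH, 29512, 11863 and 7226 in TFR, 447, 669 and 61 in naive and 2284, 1211 and 161 in Treg cells. All 4 fractions were lowest on d25, and the reference fractions by the larger factor, which gave a follicular day change of 1.60 ± 0.62 (limma adjusted p = 0.453), or 1.13 with the detection limit for naive cells of d25, and 1.64 for a second probe. Cenpe, a mitotic motor, had 5171, 2818 and 1432 in TFH and 8153, 4171 and 2396 in TFR cells, with both d25 reference arrays below background. Its follicular day change was 0.91 ± 0.59 (limma adjusted p = 0.655), or 0.10 with the detection limit. Gins2, a part of the replicative helicase, had 3712, 4102 and 3141 in TFH and 8008, 6637 and 4790 in TFR cells.

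Of 15 tested cytokine genes, 4 lay above and 7 below both d12 slides (35.0% and 31.7% of all tested probes), with a median follicular change of -0.09. Csf2, Il17a, Il5, Il6 and Il9 were not tested. In the helper contrast 4 had an unadjusted p under 0.05 and were lower on d25 (2.18% of all tested), of which Il3 was called. Lif, a cytokine of the IL-6 family, had 61, 91 and 35 in TFH and 135, 117 and 83 in TFR cells. Il13, a type 2 cytokine, had 75, 158 and 285 in TFH and 27, 89 and 208 in TFR cells, with all reference arrays at 20. Its follicular change was 1.75 ± 0.51 (limma adjusted p = 0.317), or 0.31 with the detection limit, and d12 slide 2 lay closer to d25 than to d12 slide 1. Il21 in TFH cells was 17879, 16636 and 15019, and Il4 there was 37251, 41531 and 41849.

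The median glycolysis gene was higher in follicular than in reference fractions on every slide, by 0.85 and 0.65 on d12 and 0.59 on d25. None of 17 lay above both d12 slides and 11 lay below, with a median change of -0.17. For this and the next lists, 35.0% of all tested probes lay above both d12 slides in the follicular difference and 31.7% below. Ldha, lactate dehydrogenase A, had 176910, 192534 and 168637 in TFH and 197977, 208166 and 167757 in TFR cells, a change of -0.24 ± 0.10 (limma adjusted p = 0.469). Pkm, pyruvate kinase, was at -0.26 ± 0.13. Of 14 immediate early and stress genes 10 lay above and 2 below (median 0.19), with Dusp1, a MAP kinase phosphatase, at 0.97 ± 0.31 (limma adjusted p = 0.358). Of 19 interferon response genes 10 lay above and 2 below (median 0.19), and Gbp2, a guanylate-binding protein, was at -0.29 ± 0.12.

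Inhibitory receptor genes lay above both d12 slides in 9 of 12 and below in 1, with a median of 0.29, and Cd200r1, the receptor of Cd200, was at 0.72 ± 0.31 (limma adjusted p = 0.513). Homing receptors split 10 above and 5 below of 21 in the follicular difference (35.0% and 31.7% of all tested probes). In TFR minus Treg they split 15 and 3 (39.3% and 38.1% of all). The splits of the lists below are beside the same shares of the follicular difference, and several lie near them. Type 1 genes split 9 and 4 of 18, where Gzma, a granzyme, was at -1.63 ± 0.57 (limma adjusted p = 0.412) and Eomes by 1.29 ± 0.48. IL-2 response genes split 4 and 4 of 12. Survival and death genes split 7 and 3 of 14, with the anti-apoptotic Mcl1 at 22692, 27440 and 40634 in TFR cells. The amine, peptide and lipid mediator genes split 6 and 3 of 14 with a median of 0.11, and 4 had an unadjusted p under 0.05, all higher (5.10% of all tested probes were). With the detection limit they split 4 and 3 with a median of 0.03, and in TFR minus Treg 3 lay above and 8 below (30% and 50.4% of all tested probes). No gene of any list was called in the follicular day change.

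**Figure D5:**
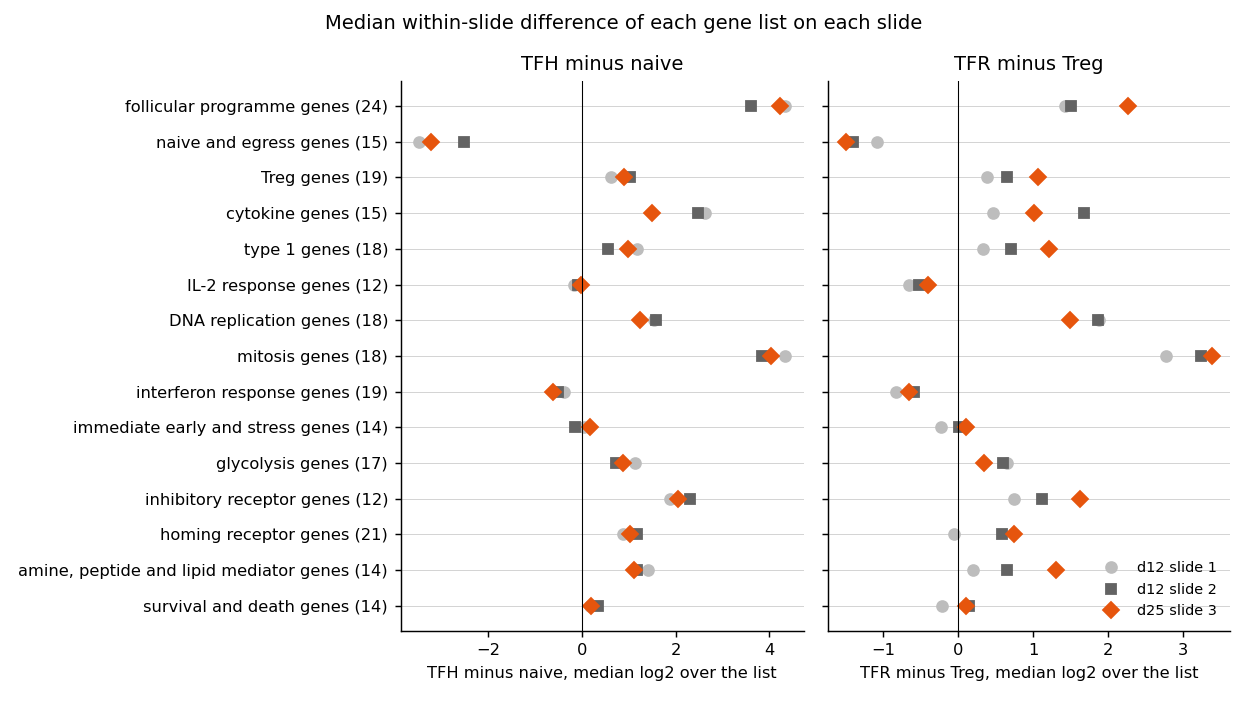
Median within-slide log2 difference of 15 gene lists on each pLN slide, TFH minus naive on the left and TFR minus Treg on the right (grey circles and squares, d12 slides 1 and 2; orange diamonds, d25; tested genes in brackets). On the right the d25 median lies above both d12 medians in 9 of the 15 lists, among them follicular programme genes (2.27), inhibitory receptor genes (1.63), type 1 genes (1.21) and Treg genes (1.07), and below both in 3.

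Whether the helper and regulatory contrasts differed was tested as the regulatory minus the helper day change. limma called 0 of 22118 probes (0%), with a smallest adjusted p of 0.207, and 1227 (5.55%) had an unadjusted p under 0.05. Il3 had the smallest p, at 3.41 ± 0.35 (limma adjusted p = 0.207), followed by Gc at -2.40 ± 0.29 (adjusted p = 0.283). Pde2a was at -1.72 ± 0.31 (adjusted p = 0.517) and Tph1 at 6.35 ± 1.12 (adjusted p = 0.517). With the detection limit Il3 was at 0.49, Gc at -2.80 and Tph1 at 3.1, and Pde2a, detected on every array, kept its value. For Gc, undetected in TFR and Treg cells, -1.36 of this came from the limits alone. As Il3, Gc and Tph1 passed the filter only through the arrays named above, their values here are no support for a difference. The day change of the follicular programme genes in TFR minus Treg is thus not shown to differ from that in TFH minus naive for any single gene. The list's median regulatory minus helper change was 0.46.

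Calls between the 2 reference fractions rested on values near background. For Treg minus naive, limma called 3 probes (0.0136%), those of Dhdh (3.96, adjusted p = 0.0234), Erbb3 (-1.83, adjusted p = 0.0356) and Pifo (-2.56, adjusted p = 0.0185), with 1027 probes (4.64%) at an unadjusted p under 0.05. Each was below background on most arrays, with Dhdh at 193 on the d25 Treg array and 20 to 83 on the others. Erbb3 was detected on no d25 array, and Pifo was at 20 on the d25 Treg array. With the detection limit the values were 1.08, -0.16 and 0.21, and no probe was called. The limits alone gave 0.836 in this contrast for Gc, undetected in both fractions. A change between the reference fractions is thus not shown. The count was 27 without the naive array of d12 slide 2 and 0 to 2 without any other single d12 array.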

How the data were processed

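Values were intensities from single-colour Agilent arrays (Feature Extraction 10.7.3.1 per the labels). The deposited scanner files give a background-subtracted intensity for each of 4 features per probe, with the raw mean and local background intensity, and per the authors' methods their series matrix holds whole-number intensity, made by feature averaging, quantile normalisation, scaling that sets the 75th percentile at 1500, and a floor of 20. These steps were repeated on 39429 probes for all 20 arrays, with features outside 1.42 interquartile ranges or with a pixel coefficient of variation above 0.5 left out, and the log2 result was a median of 0.0347 to 0.0362 away from the matrix. The local background of the pLN arrays was 36 to 78, or 268 on the d12 TFR array of slide 2, and that of the PP arrays 24 to 39, and no feature was saturated. A probe was well above background (detected) on an array when 3 of 4 features were, and tested when detected on 2 of the 12 pLN arrays (22118 probes, 14375 genes, 2918 without symbol). Detection limits per array, the lowest detected intensities, were 20 to 144, with 20 to 92.2 on the d12 and 72.7 to 144 on the d25 arrays. Folds against them are no strict minima, as some undetected probes read above them. Positions are mm9, and symbols came from a RefSeq table by accession (27592 probes matched).

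limma 3.58.1 in R 4.3.3 (lmFit, eBayes) was fitted to log2 values of all 20 arrays with 12 group means and slide as a fixed block (6 residual degrees of freedom), with two-sided p adjusted by Benjamini-Hochberg over all tested probes of a comparison. It was tested on simulated data with 200 changed probes (9 false calls). SE values are from this fit. Named were, per direction, up to 10 probes of smallest p for the follicular day change with an absolute log2 value of at least 1 beyond both d12 slides, up to 5 likewise for the other day changes, up to 3 members per gene list, and 9 defining genes. The members and lists were chosen with earlier results of these data known. Alternatives were a random or no slide block, pLN arrays alone, other scaling, normexp background, the authors' matrix, other filters, the detection limit as floor, other moderation, and each d12 array or slide left out. 1 gene the naming rule would give is not reported here.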

Additional observations from a re-analysis of the deposited data

How the results depend on the processing

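Of 23 alternatives, 15 left the follicular day change at 0 calls. It had 10 calls with slide as a random block (consensus correlation 0.759), 1 with normexp background (Dbh), 73 without a filter, 1 in the unmoderated contrast, 1 without d12 slide 1, 83 without d12 slide 2, and 0 to 14 with a single d12 array left out. TFH minus naive had 0 without a slide block, with pLN arrays alone, with 75th percentile scaling, with the detection limit as floor, over probes detected on all 12 arrays, with trend and robust moderation, unmoderated and without slide 1, 4 with the authors' matrix or detection on both arrays of a group, 11 with the random block, 103 without a filter, 25 without slide 2, and 0 to 14 with an array left out. TFR minus Treg had 1 with the random block, 101 without a filter, 1 without slide 1, and 0 to 47. Regulatory minus helper had 2 with the random block (Gc and Il3), 1 with normexp (Il3), 130 without a filter, 1 without slide 1, 1 without slide 2, and 0 to 1. Treg minus naive had 1 without a slide block, 0 with pLN arrays alone, percentile scaling, normexp, the floor, all 12 arrays, the unmoderated contrast or without slide 1, 1 with trend and robust moderation, 101 without a filter, and 0 to 27.

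The d12 follicular difference had 2270 calls with normexp, 1599 over probes detected on all 12 arrays (where fewer were tested), 13433 without a minimum log2 value, and 3221 to 3780 with an array left out. The d25 one had 1576 over all 12, 2190 unmoderated, 10090 without a minimum, and 3573 to 3609. The median over the PP programme changed by -0.0665 with the floor, 0.0221 over all 12 and 0.251 without slide 1, and by 0.109 to 0.167 elsewhere; settings of the test alone and single arrays left out give it no value. Of 99 named or listed genes, 24 values changed sign and 2205 did not. With normexp, Foxp3 was 0.0588 and Pifo -0.00957. With the floor, Dbh was -0.111, Pdlim7 -0.797, Krt13 -0.301, Pgm3 -0.187, Csta2 -0.0555, Smim1 -0.439, B130006D01Rik 0.321, Pid1 0.061, Heatr5b -0.048, Map7d3 -0.00845, Foxp3 0.471, Il21 -0.425, Ascl2 -0.141, Bub1 -0.841, Erbb3 -0.687 and Pifo -0.0755. Ccr7 ran from -0.073 to 0.46 with single d12 arrays left out, Il4 from -0.275 to 1.01 and Il2ra from -0.348 to 0.0222, and Ccr7 was -0.0151 without slide 1, Il4 -0.0546 and Il2ra 0.137 without slide 2. Beyond the floor and the number of probes or arrays, the cause was not tested. A group left with 1 array is assumed to vary like the others, and no d25 array can be left out. Slide, which is also the replicate number among the d12 arrays, was a block in the reported fit, and the counts without it are given above. Signal near background limits most of the leading genes: 70.8% of tested probes were detected on all 12 arrays.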
